A study of Mus musculus with 18 samples.

Results

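The heat shock and DnaJ chaperone genes of mouse were followed in ribosome pull-downs from endothelial cells of the choroid, the retina and the brain. The genes were chosen by symbol alone: names that begin with Hspa, Hspb, Hspd, Hspe, Hsph, Hsp90, Dnaja, Dnajb or Dnajc and go on with a number or with a or b, without Hspbp1, in any of the 3 deposited tables. This gave 63 genes of the 14068 listed in at least 1 table, and 61 of them were among the 10505 genes in all 3 tables. By family they were 11 HSP70 genes, 3 HSP110 genes, 3 HSP90 genes, 2 mitochondrial chaperonin genes, 4 small heat shock protein genes, 38 DnaJ genes (4 DnajA, 9 DnajB and 25 DnajC) and 2 genes that share only the name. Those 2 were Hspb11, an intraflagellar transport protein, and Hspbap1, a protein named for binding a small heat shock protein. Hspa1l was not listed in choroid, and Hspb2 was listed in choroid but in neither retina nor brain.

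Chaperones bind unfolded or partly folded proteins and help them to fold, to cross membranes or to be degraded. HSP70 proteins do this with ATP, J-domain (DnaJ) proteins bring them their clients and start ATP hydrolysis, HSP110 proteins exchange the nucleotide, and HSP90 takes over late-folding clients such as kinases and steroid receptors. Small heat shock proteins hold unfolded proteins without ATP, the chaperonins Hspd1 and Hspe1 form the folding chamber of mitochondria, and Hspa5 and Hsp90b1 serve the endoplasmic reticulum (ER). Heat shock factor 1 induces many of these genes under protein stress, and the unfolded protein response induces the ER members.

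All animals were Tie2-cre+; NuTRAP+. The column names of all libraries also carry the letters WT, which the names do not explain. The Tie2 promoter drives Cre in endothelial cells and also in blood-lineage cells, and Cre switches on the NuTRAP allele, which puts GFP on ribosomes. Anti-GFP beads then pulled tagged ribosomes and their RNA (the positive fraction) out of a cleared lysate, and the input was an aliquot of the same lysate. Each of the 6 groups (positive and input of choroid, retina and brain) held 3 libraries, numbered 421, 953 and 960. A replicate was 2 pooled retinae, the choroid with pigment epithelium scraped from 2 fellow eyes, or 0.5 of a brain. The beads were left with the lysate overnight while the input was not, and the labels name neither sex nor age. Nothing in the labels says whether a number marks 1 animal across tissues, so p-values measure the spread between these libraries.

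Depth, summed over listed genes, was 2649095 to 4587921 counts in choroid positive and 8807306 to 14484068 in choroid input libraries, 6260958 to 11071373 in retina positive and 15243098 to 21521130 in retina input libraries, and 18618427 to 28277853 in brain positive and 9596740 to 32064355 in brain input libraries. Brain input 960 stood apart, with a correlation of log2 CPM (counts scaled to 1000000 per library) across genes of 0.893 and 0.895 with the other brain inputs, which correlated at 0.996 with each other. All 12 endothelial markers (Pecam1, Cdh5, Cldn5 and others) were called higher in the positive fraction of choroid and of brain, and 11 of 12 were in retina. Leukocyte markers moved the same way, with 10 of 11 listed markers called higher in choroid, 8 of 8 in retina and 10 of 11 in brain. Their summed level, scaled within each tissue, was 16590 to 23810 CPM in choroid positive, 207 to 856 in retina positive and 4689 to 6039 in brain positive libraries. The sums cover these 11, 8 and 11 markers, and Lyz2 alone averaged 13790 CPM in choroid positive libraries. Rod and cone markers still summed to 24100 to 37710 CPM in retina positive libraries, against 39630 to 41340 CPM in retina inputs. The part of leukocyte and photoreceptor RNA in the results below was not tested, and in such bulk libraries fewer cells of a type and less RNA per cell cannot be told apart.

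Chaperone genes were spread over both directions of the pull-down in each tissue, and not more often than other genes. In choroid 12 members were higher and 10 were lower in positive than in input libraries, and 40 were not called. These 22 of 62 were 35.5%, where 42.0% of all 11718 genes were called (21.1% higher and 20.9% lower). In retina 6 were higher and 9 lower of 62 (24.2%), where 31.7% of all 12369 genes were called (18% higher and 13.7% lower). In brain 8 were higher and 7 lower of 62 (24.2%), where 39.5% of all 12919 genes were called (21.2% higher and 18.3% lower). A call is an adjusted p under 0.05 in edgeR's quasi-likelihood test, with Benjamini-Hochberg adjustment over all genes of the table. The median log2 fold change of the members was 0.22 in choroid, -0.15 in retina and -0.01 in brain, beside -0.03, -0.01 and -0.07 over all genes.

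Several of these counts moved with the libraries and the scaling used. With library size alone as the scaling, which moved the median of all genes in choroid by -0.226, the choroid counts were 7 higher and 15 lower (35.5% of members, beside 43.5% of all genes). With each positive library paired to the input of the same lysate they were 19 and 14 (53.2%, beside 56.6% of all genes). In brain, leaving out input 960 gave 25 higher and 16 lower (66.1%, beside 72.1% of all genes). In retina, leaving out positive 960 gave 6 higher and 22 lower (45.2%, beside 46.5% of all genes). The header minimum (a raw value of 50 in every library of at least 1 fraction) was met in both fractions by 44 members in choroid, 60 in retina and 59 in brain. In choroid 18 members met it through the inputs alone, and they include 6 of the 10 that were called lower (Dnajc6, Dnajc16, Dnajc27, Hspa12a, Hspb2 and Hspb6), so a call higher was less open to them. Calls described below as held kept their sign and stayed under the threshold when any 1 of the 6 libraries was left out, which was true of 6 higher and 7 lower members in choroid, 3 and 5 in retina, and 7 and 3 in brain.

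**Figure D1:**
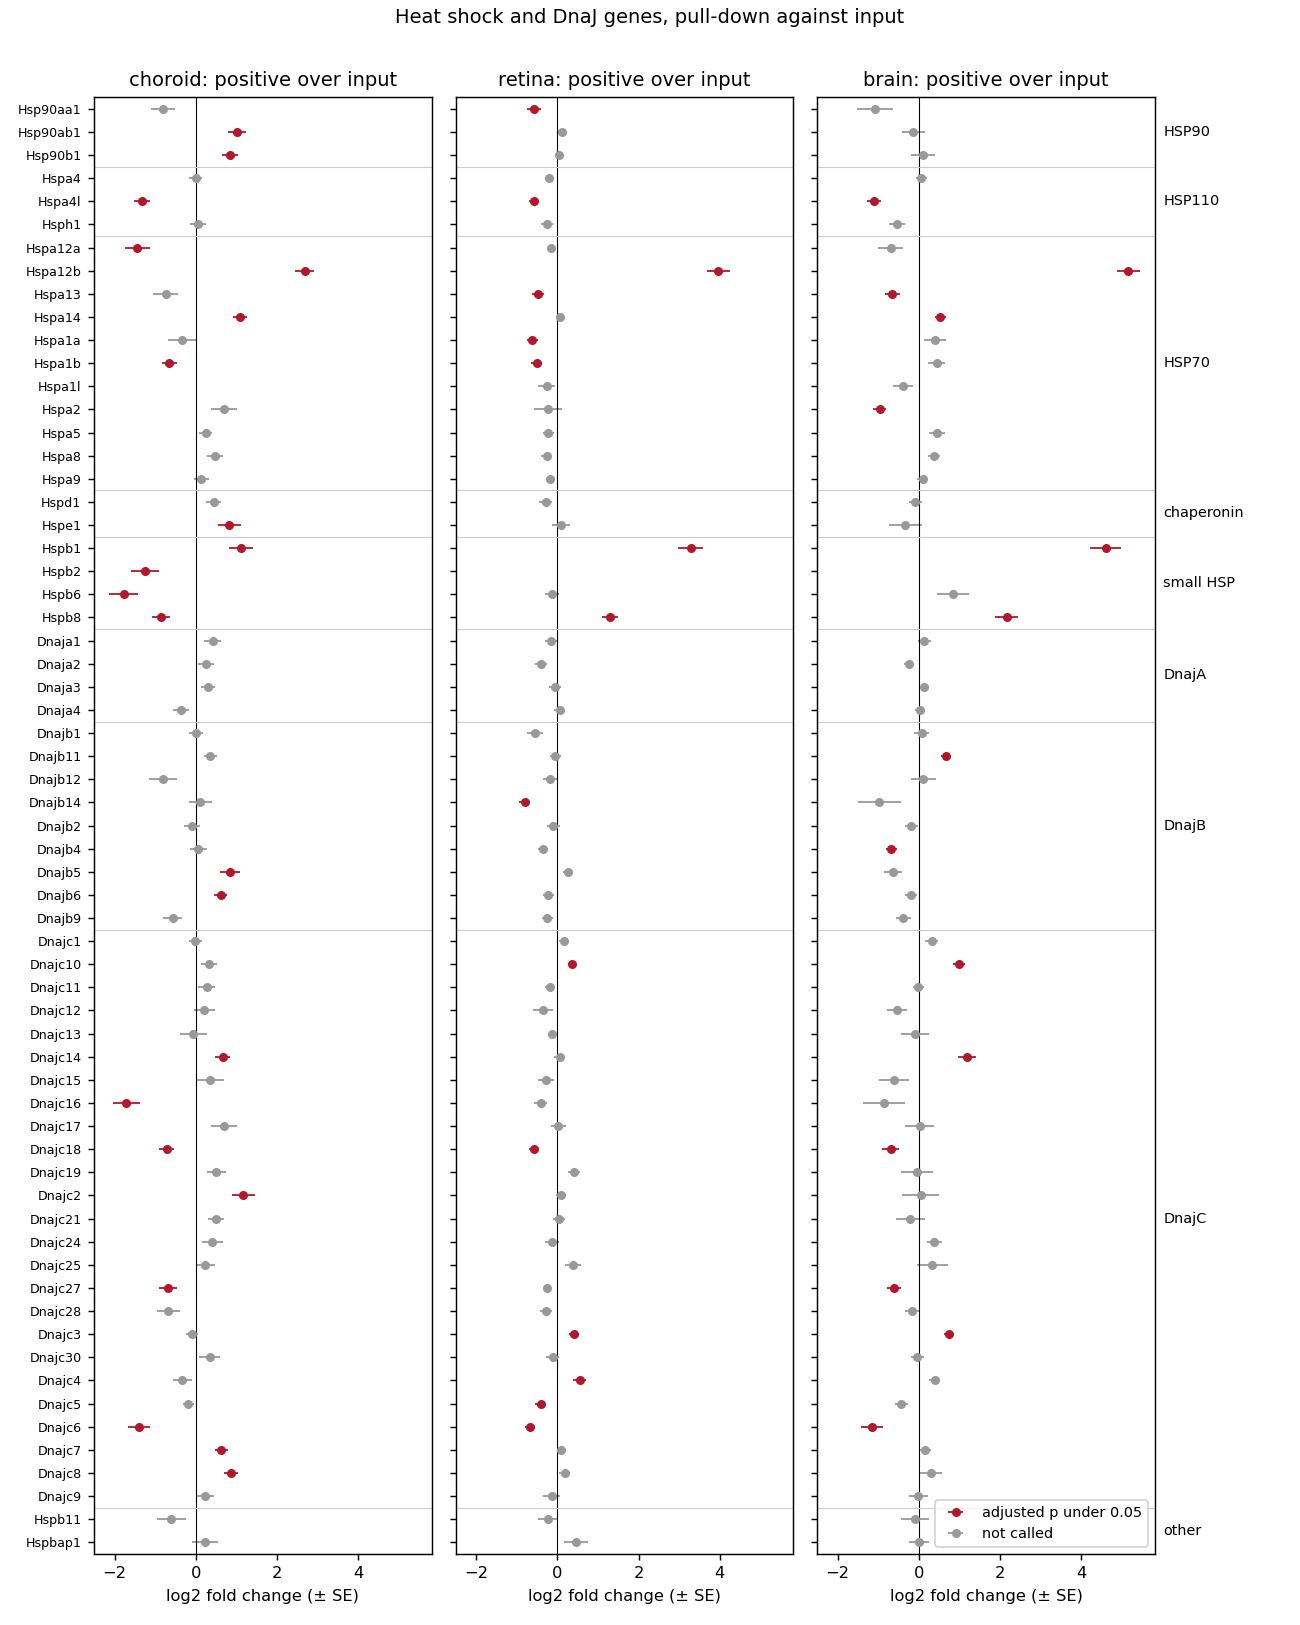
Log2 fold change of positive over input libraries for each listed member in choroid, retina and brain (points, with bars for ± 1 SE; 3 libraries per group). Red points passed an adjusted p of 0.05; Hspa12b and Hspb1 lie farthest to the right, at 5.16 and 4.59 in brain, and most other members lie within 1 of 0.

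The small heat shock proteins gave the widest spread between tissues. Hspb1 (chr5:135887919-135889563, + strand, mm10), which caps actin filaments and holds unfolded proteins, had 79.0, 169 and 170 CPM in choroid positive libraries 421, 953 and 960, against 71.3, 55.3 and 66.0 CPM in choroid inputs. In retina it had 51.6, 36.5 and 26.9 CPM in positive libraries, against 2.82, 5.28 and 3.48 CPM in inputs. In brain it had 232, 328 and 217 CPM in positive libraries, against 8.66, 7.45 and 16.7 CPM in inputs. Positive and input libraries did not overlap in any tissue, and the lowest choroid positive library lay close to its input. The log2 fold change was 1.11 ± 0.29 in choroid (SE, adjusted p = 0.0149), 3.28 ± 0.30 in retina (adjusted p = 7.89e-05) and 4.59 ± 0.38 in brain (adjusted p = 0.000169). The retina and brain calls held. The choroid call was lost without input 953, positive 953 or positive 960, with an adjusted p of up to 0.0638. Hspb1 met the minimum for listing in retina through the positive libraries alone, so its direction there was partly set by the filter.

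Hspb8 (chr5:116408495-116422864, - strand), the small heat shock protein that works with Bag3 and Hspa8 in selective autophagy, turned from one tissue to the next. It had 34.3, 59.3 and 54.7 CPM in choroid positive libraries, against 99.8, 88.3 and 79.9 CPM in choroid inputs. It had 13.9, 16.6 and 20.6 CPM in retina positive libraries against 7.35, 6.35 and 7.39 CPM in inputs, and 78.3, 105 and 86.7 CPM in brain positive libraries against 24.8, 23.0 and 12.1 CPM in inputs. All positive libraries lay below the inputs in choroid and above them in retina and brain. Hspb8 fell by 0.86 on the log2 scale in choroid (SE 0.23, adjusted p = 0.0164) and rose by 1.29 ± 0.20 in retina (adjusted p = 0.00167) and 2.16 ± 0.29 in brain (adjusted p = 0.00146), and all 3 calls held.

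Hspb6 (HSP20), known for relaxing smooth muscle, had 7.03, 4.63 and 12.7 CPM in choroid positive libraries, against 25.2, 24.3 and 31.8 CPM in choroid inputs. It fell by 1.77 on the log2 scale (SE 0.35, adjusted p = 0.00475), a call that held. Hspb2, a muscle small heat shock protein beside Cryab, had 4.08, 2.16 and 2.54 CPM in choroid positive libraries against 7.12, 6.79 and 7.69 CPM in inputs and also fell there, by 1.25 (SE 0.35, adjusted p = 0.0204). That call was lost without any choroid input, positive 953 or positive 960 (adjusted p up to 0.0588). Both genes met the minimum through the choroid inputs alone, so their direction there was partly set by the filter. Both overlap genes on the opposite strand, Cryab for Hspb2 and Lin37 and Proser3 for Hspb6, and no source used here says whether reads were counted by strand. Mural cell markers moved with Hspb6 and Hspb2 in choroid: 5 of the 6 listed were called lower, and their sum was 88.3 to 166 CPM in positive and 264 to 494 CPM in input libraries. Fibroblast markers did so too (5 of 6 called lower, 500 to 808 CPM against 1544 to 2089 CPM). Pigment epithelium markers were all called lower as well, 7 of 7, at 3456 to 7503 CPM in positive and 13590 to 21870 CPM in input libraries. Over all genes 20.9% were called lower in choroid. The part of these cell types in the values was not tested.

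In retina Hspb6 had 74.4, 93.1 and 124 CPM in positive libraries and 106, 106 and 106 CPM in inputs, a difference of -0.13 ± 0.17 that was not called (adjusted p = 0.59). All 3 inputs lay inside the range of the positive libraries. In brain it stood at 7.49, 6.85 and 6.46 CPM in positive libraries, against 4.59, 5.06 and 1.52 CPM in inputs (0.84 ± 0.40, adjusted p = 0.132), and it met the brain minimum through the positive libraries alone. Without brain input 960, the lowest, the brain value was 0.52 with an adjusted p of 0.0236, over alternatives that ran from 0.0203 to 0.322. Among retina positive libraries, 421 had the most Rgs5, a pericyte marker, at 292 CPM beside 25.5 and 8.71 CPM in the others. It also had the highest sum of endothelial markers, at 3952 CPM beside 2718 and 2355 CPM, and Hspb1 and Hspa12b were highest there. The part of either marker set was not tested. Their retina calls held without that library.

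The 300 bases around the annotated starts of Hspb1 and Hspb8 are shown because these genes had the largest differences in enrichment between choroid and brain (RefSeq, GRCm38.p6; 250 bases before to 50 after the start, read 5′ to 3′ on the gene's strand). They lie at chr5:135887669-135887968 (+ strand) and chr5:116422815-116423114 (- strand). Both strands were searched for a heat shock element of 3 units, GAANNTTCNNGAA, and for the ER stress response element, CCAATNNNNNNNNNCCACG. Neither window held either string, so both are printed without capitals, which says only that these letters are not in these windows.
Hspb1: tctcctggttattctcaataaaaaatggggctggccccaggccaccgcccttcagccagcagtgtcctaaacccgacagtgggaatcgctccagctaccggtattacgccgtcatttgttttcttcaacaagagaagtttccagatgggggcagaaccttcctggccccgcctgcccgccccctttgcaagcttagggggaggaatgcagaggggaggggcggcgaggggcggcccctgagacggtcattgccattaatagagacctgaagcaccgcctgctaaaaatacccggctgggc
Hspb8: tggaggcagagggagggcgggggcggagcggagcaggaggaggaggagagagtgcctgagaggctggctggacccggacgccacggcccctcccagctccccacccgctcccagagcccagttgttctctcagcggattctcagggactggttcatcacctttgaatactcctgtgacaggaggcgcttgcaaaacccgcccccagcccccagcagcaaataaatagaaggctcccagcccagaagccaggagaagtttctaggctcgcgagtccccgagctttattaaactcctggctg

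Among HSP70 genes, Hspa12b (chr2:131127412-131145983, + strand), an atypical member expressed in endothelium, was far higher in the pull-down of every tissue. It had 106, 84.0 and 108 CPM in choroid positive libraries, against 19.9, 12.9 and 13.4 CPM in inputs. In retina it had 105, 66.3 and 52.8 CPM in positive libraries, against 4.13, 4.30 and 5.84 CPM in inputs, and in brain 209, 276 and 194 CPM in positive libraries, against 8.12, 5.78 and 4.88 CPM in inputs. No input library came near a positive one. The log2 fold change was 2.69 ± 0.23 in choroid (adjusted p = 0.00014), 3.96 ± 0.28 in retina (adjusted p = 1.61e-05) and 5.16 ± 0.28 in brain (adjusted p = 4.12e-05), and the 3 calls held. In brain Hspa12b met the header minimum through the positive libraries alone.

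Its closest relative Hspa12a, an atypical HSP70 abundant in brain, went the other way in choroid. It had 8.17, 8.64 and 8.90 CPM in choroid positive libraries against 17.9, 32.5 and 19.2 CPM in inputs, fell by 1.44 on the log2 scale (SE 0.30, adjusted p = 0.00615), and the call held. In retina it had 239 to 256 CPM in positive and 266 to 281 CPM in input libraries, without overlap and without a call (-0.15 ± 0.10, adjusted p = 0.256). In brain it had 87.1 to 108 CPM in positive libraries against 199, 199 and 90.0 CPM in inputs (-0.70 ± 0.31, adjusted p = 0.117), so input 960 alone lay at the positive level. Hspa12a met the choroid minimum through the inputs alone and overlaps Eno4 on the opposite strand.

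The promoter window of Hspa12b (chr2:131127162-131127461, + strand) is shown as the gene with the largest enrichment. It held neither of the searched strings.
Hspa12b: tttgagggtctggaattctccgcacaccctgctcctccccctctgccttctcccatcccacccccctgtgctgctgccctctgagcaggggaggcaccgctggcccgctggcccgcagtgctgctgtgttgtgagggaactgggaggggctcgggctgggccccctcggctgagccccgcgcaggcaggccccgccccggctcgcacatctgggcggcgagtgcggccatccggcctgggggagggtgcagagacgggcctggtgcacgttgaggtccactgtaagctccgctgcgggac

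The stress-inducible genes Hspa1a and Hspa1b, the classical heat shock targets, were not called higher in any pull-down of 3 libraries against 3. They are near-identical neighbours on chromosome 17, so the split of reads between them is uncertain. Hspa1b had 23.1, 27.2 and 24.2 CPM in choroid positive libraries against 40.8, 36.8 and 39.2 CPM in inputs, 59.0, 47.4 and 56.8 CPM in retina positive libraries against 76.2, 87.0 and 69.3 CPM in inputs, and 18.9, 27.1 and 23.7 CPM in brain positive libraries against 17.7, 20.3 and 13.3 CPM in inputs. It lay below every input in choroid and retina and overlapped the inputs in brain. It fell by 0.65 in choroid (SE 0.18, adjusted p = 0.0214) and by 0.51 in retina (SE 0.13, adjusted p = 0.0191), and in brain it was 0.43 ± 0.22 higher without a call (adjusted p = 0.157). The choroid call was lost without any 1 of the inputs or positive 960 (adjusted p up to 0.0582), and the retina call without input 421, input 953 or positive 953 (up to 0.102). Hspa1a fell by 0.61 in retina (SE 0.12, adjusted p = 0.00705), at 27.1, 23.0 and 24.0 CPM in positive libraries against 36.8, 40.9 and 35.6 CPM in inputs, and this call held, although in a fit of all 18 libraries its adjusted p was 0.089 (0.000619 to 0.161 over its alternatives). Hspa1a was not called in choroid (-0.34 ± 0.35, adjusted p = 0.462) or brain (0.39 ± 0.27, adjusted p = 0.295). It met the choroid minimum through the inputs alone, so a call higher was less open to it there. Without brain input 960 the brain value of Hspa1a was 0.59 (adjusted p = 0.0445, in a range of 0.0445 to 0.959).

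The constitutive HSP70 genes were abundant and little changed. Hspa8, the cytosolic HSC70 that also uncoats clathrin vesicles, had 1582, 1883 and 2154 CPM in choroid positive libraries against 1290, 1391 and 1373 CPM in inputs (0.47 ± 0.20, adjusted p = 0.0857). With positive and input libraries of a lysate paired, its choroid adjusted p was 0.0227, in a range of 0.0144 to 0.308 over alternatives. It had 813, 691 and 965 CPM in retina positive libraries against 964, 1014 and 993 CPM in inputs (-0.27 ± 0.14, adjusted p = 0.184), and 2217, 2411 and 2268 CPM in brain positive libraries against 1896, 1862 and 1566 CPM in inputs (0.37 ± 0.15, adjusted p = 0.0855). The choroid and brain libraries did not overlap, and the retina ones did. Without brain input 960 the brain value of Hspa8 was 0.29 (adjusted p = 0.0317, in a range of 0.0113 to 0.445). Hspa9, the mitochondrial HSP70, differed by no more than 0.17 in any tissue, with adjusted p-values of 0.562, 0.263 and 0.609 in choroid, retina and brain.

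Hspa5 (BiP), the ER member that keeps the stress sensors of the unfolded protein response inactive, had 522, 570 and 622 CPM in choroid positive libraries against 456, 500 and 494 CPM in inputs (0.24 ± 0.17, adjusted p = 0.273). It had 178, 191 and 243 CPM in retina positive libraries against 223, 253 and 240 CPM in inputs (-0.23 ± 0.14, adjusted p = 0.232). In brain it had 420, 496 and 470 CPM in positive libraries against 285, 314 and 418 CPM in inputs (0.45 ± 0.19, adjusted p = 0.102). Brain input 960 lay just under the lowest positive library, and without it the brain value was 0.63 with an adjusted p of 0.00139, within a range of 0.00131 to 0.588. Hspa14, a ribosome-associated HSP70 that acts on nascent chains, rose by 1.08 ± 0.17 in choroid (57.6, 64.8 and 65.3 CPM against 26.9, 31.5 and 30.2 CPM, adjusted p = 0.00169), a call that held. The reference annotation holds another gene of the same symbol that overlaps Hspa14 on its strand, so its reads are uncertain. In retina, 13 members not called in the full set were called lower when positive 960 was left out. Of the well-known members these were Hspa5, lower by 0.36 (adjusted p = 0.0138), Hspa8 by 0.38 (adjusted p = 0.0169), Hspb6 by 0.33 (adjusted p = 0.0344), Hspd1 by 0.49 (adjusted p = 0.00261), Dnaja1 by 0.29 (adjusted p = 0.0401) and Dnajb1 by 0.73 (adjusted p = 0.00687). Retina positive 960 also had the highest sum of rod and cone markers and of neuron markers among the retina positive libraries, and their part was not tested.

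Elements for ER stress and heat shock were found in few windows. RefSeq gave a window for 51 of the 63 members, 68 windows in all. The ER stress response element lay in windows of 3 of the 51 (5.88%), which were Hspa5, Hsp90b1 and Dnajc3, beside 0.137% of all 27025 genes with a window. The heat shock element of 3 units lay in windows of 4 of the 51 (7.84%), which were Dnajb6, Hspd1, Hspe1 and Hsph1, beside 0.662% of all genes. The windows of 1 gene of each kind are shown so that these letters can be seen. That of Hspa5 (chr2:34771840-34772139, + strand) has the ER stress response element in capitals. That of Hspe1 (chr1:55087898-55088197, + strand) has 2 overlapping matches of the heat shock element in capitals. It shares 285 bases with a window of Hspd1, its neighbour on the other strand. The matches of Hspd1 lie on the same bases, so 1 stretch was counted for both genes.
Hspa5: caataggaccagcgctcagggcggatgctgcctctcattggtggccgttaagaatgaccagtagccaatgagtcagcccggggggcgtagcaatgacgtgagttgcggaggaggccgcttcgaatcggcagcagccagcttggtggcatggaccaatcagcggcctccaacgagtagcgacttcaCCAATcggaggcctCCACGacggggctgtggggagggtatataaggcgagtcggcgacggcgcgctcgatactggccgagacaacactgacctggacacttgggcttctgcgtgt
Hspe1: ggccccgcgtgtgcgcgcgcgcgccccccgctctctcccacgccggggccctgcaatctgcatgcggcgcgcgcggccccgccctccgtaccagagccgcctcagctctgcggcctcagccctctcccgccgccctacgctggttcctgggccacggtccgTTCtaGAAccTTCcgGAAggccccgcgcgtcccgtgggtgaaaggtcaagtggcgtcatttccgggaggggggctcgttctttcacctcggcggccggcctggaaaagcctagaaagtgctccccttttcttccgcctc

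The HSP110 gene Hspa4l, a nucleotide exchange factor known from testis and brain, was lower in the pull-down of all 3 tissues. It had 29.9, 22.5 and 23.3 CPM in choroid positive libraries against 70.5, 60.8 and 59.9 CPM in inputs. It had 215, 172 and 208 CPM in retina positive libraries against 287, 308 and 297 CPM in inputs, and 62.7, 53.7 and 59.7 CPM in brain positive libraries against 143, 132 and 104 CPM in inputs. All positive libraries lay under all inputs of their tissue. Hspa4l fell by 1.33 in choroid (SE 0.20, adjusted p = 0.00113), by 0.58 in retina (SE 0.12, adjusted p = 0.00673) and by 1.11 in brain (SE 0.17, adjusted p = 0.00247), and the 3 calls held. Neuron markers were lower in retina and brain, with 5 of 8 called lower in retina (2443 to 4100 CPM in positive and 4772 to 4853 CPM in input libraries) and 6 of 8 in brain (3807 to 4966 CPM in positive and 7155 to 8848 CPM in input libraries). In choroid 2 of 7 were called lower and 1, Stmn2, higher (3.03 ± 0.19, adjusted p = 4.66e-05), and their sum was 137 to 281 CPM in positive and 174 to 352 CPM in input libraries. Their part was not tested. The other HSP110 genes, Hspa4 and Hsph1, were not called in any tissue. Without brain input 960 Hsph1 was lower in brain by 0.72 (adjusted p = 0.000562, in a range of 0.000132 to 0.457).

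Of the 3 HSP90 genes, 2 rose in choroid. Hsp90ab1, the constitutive cytosolic HSP90, had 1655, 2475 and 2301 CPM in choroid positive libraries against 1060, 1033 and 1082 CPM in inputs, and rose by 1.02 ± 0.21 (adjusted p = 0.0061). Hsp90b1 (GRP94), the ER form that folds integrins and Toll-like receptors, had 833, 1193 and 1090 CPM against 558, 568 and 604 CPM and rose by 0.85 ± 0.20 (adjusted p = 0.00957). Both calls held and neither gene's libraries overlapped. In retina both stood within 0.11 of the inputs (adjusted p = 0.494 for Hsp90ab1 and 0.739 for Hsp90b1). In brain Hsp90ab1 had 1777 to 2040 CPM in positive libraries against 1620, 1595 and 3087 CPM in inputs, and Hsp90b1 had 536 to 568 CPM against 389, 384 and 776 CPM, so input 960 lay above and the other inputs below the positive libraries. Neither was called in brain (adjusted p = 0.714 and 0.823). Without input 960 the brain value was 0.24 for Hsp90ab1 (adjusted p = 0.0711) and 0.51 for Hsp90b1 (adjusted p = 0.00116), over alternatives from 0.0455 to 0.862 and from 0.00062 to 0.961.

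Hsp90aa1, the stress-inducible cytosolic HSP90, fell in the retina pull-down and had negative fold changes without a call in choroid and brain. It had 575, 934 and 1098 CPM in choroid positive libraries against 1105, 1641 and 1849 CPM in inputs, 1017, 978 and 1489 CPM in retina positive libraries against 1598, 1846 and 1749 CPM in inputs, and 968, 892 and 1113 CPM in brain positive libraries against 1259, 1284 and 3777 CPM in inputs. Choroid libraries kept the same order in both fractions, with 421 lowest and 960 highest, and brain input 960 was the highest brain library. The fold change was -0.82 ± 0.30 in choroid (adjusted p = 0.0533), -0.57 ± 0.18 in retina (adjusted p = 0.0395) and -1.09 ± 0.44 in brain (adjusted p = 0.0924). With fractions of a lysate paired, the choroid adjusted p was 0.000515 (0.000515 to 0.239 over alternatives). The retina call was lost without any 1 retina input or positive 953 (adjusted p up to 0.146), and without brain input 960 the brain value was -0.36 (adjusted p = 0.0278, in a range of 0.00146 to 0.248). The choroid value was also called when input 421 or positive 960 was left out.

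**Figure D2:**
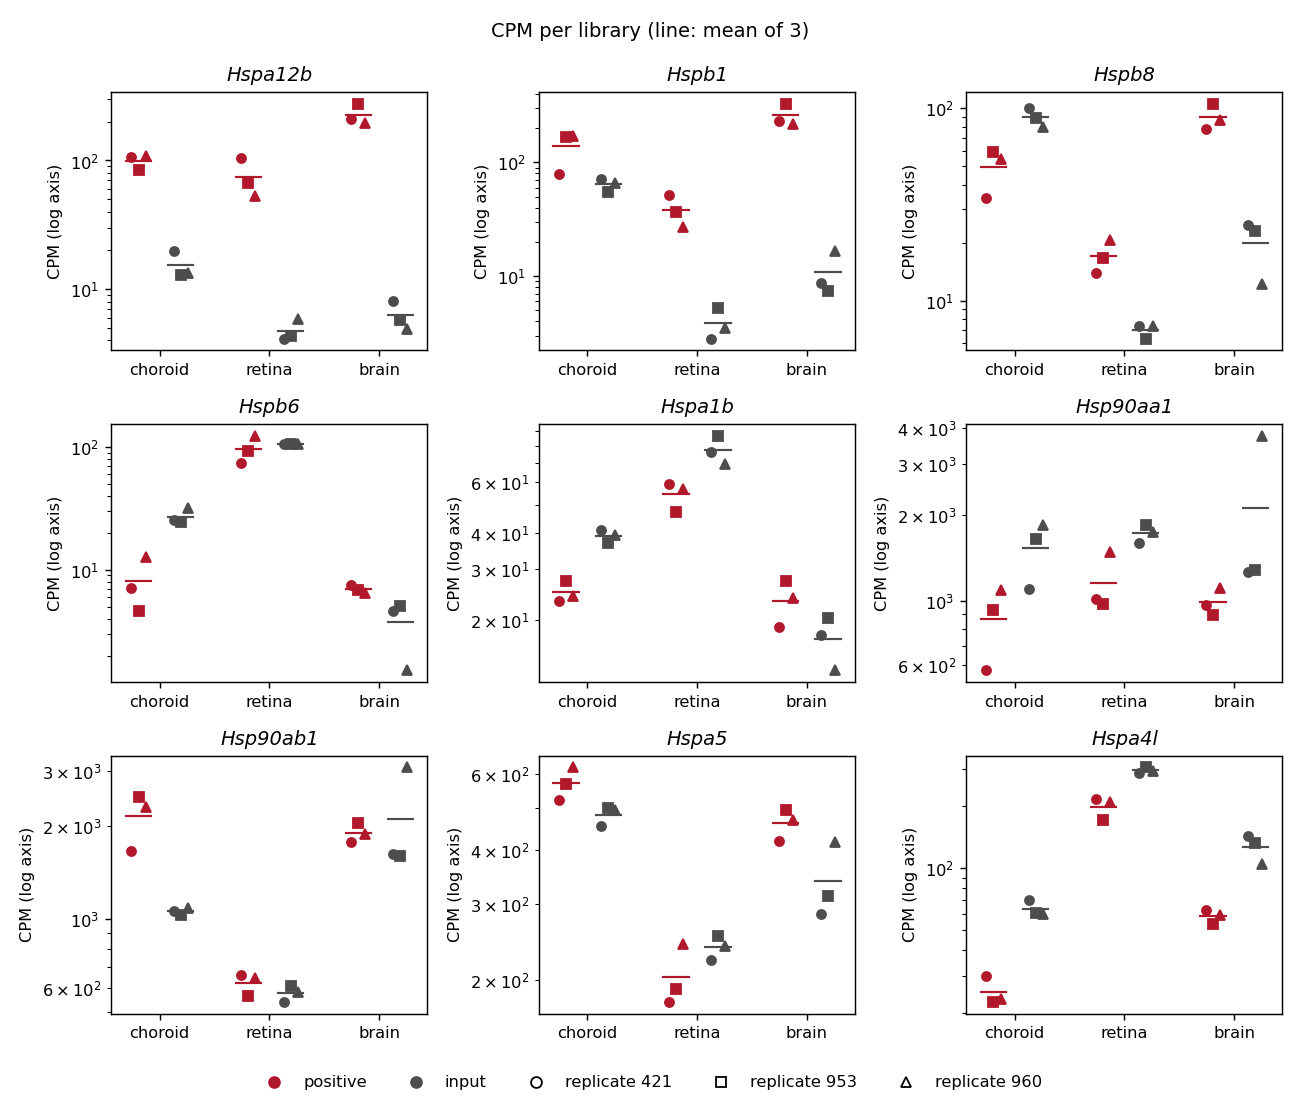
CPM on a log axis in each positive (red, left) and input (grey, right) library of choroid, retina and brain for 9 members, with symbols for replicates 421, 953 and 960 and a line at the mean of 3. Hspa12b and Hspb1 separate in every tissue, Hspb8 is below its inputs in choroid only, and brain input 960 is set off for Hsp90aa1 and Hsp90ab1.

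The mitochondrial chaperonins gave 1 call over the 3 tissues. Hspe1 (HSP10) had 74.4, 152 and 149 CPM in choroid positive libraries against 59.3, 65.6 and 86.9 CPM in inputs, with positive 421 inside the input range, and was called higher by 0.82 ± 0.29 (adjusted p = 0.047). The call was lost without input 421, input 953, positive 953 or positive 960 (adjusted p up to 0.153), and with library size as the only scaling (adjusted p = 0.104). Hspd1 (HSP60) had 210, 285 and 200 CPM in choroid positive libraries against 169, 184 and 159 CPM in inputs, which was not called (0.44 ± 0.19, adjusted p = 0.084), although pairing the fractions gave an adjusted p of 0.0183 (0.0183 to 0.371 over alternatives). Neither gene was called in retina or brain. In brain Hspe1 had 79.5, 79.6 and 77.2 CPM in positive libraries against 60.3, 65.0 and 174 CPM in inputs, and without input 960 it was 0.33 higher (adjusted p = 0.00582, in a range of 0.0052 to 0.78). The genes overlap on opposite strands, so some reads could belong to either.

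Of the 38 DnaJ genes, 6 rose and 4 fell in choroid (26.3%, beside 42.0% of all genes called). In retina 3 rose and 4 fell (18.4%, beside 31.7%), and in brain 4 rose and 4 fell (21.1%, beside 39.5%). The 4 DnajA genes, the general partners of cytosolic and mitochondrial HSP70, were called in no tissue, with values between -0.40 and 0.42. With fractions paired, Dnaja1 had an adjusted p of 0.0152 in choroid (0.0152 to 0.455 over alternatives) and Dnaja2 one of 0.0489 in retina (0.00295 to 0.443). Dnajb1 (HSP40), the stress-inducible partner of HSP70, was not called either, at 47.9 to 49.2 CPM in choroid positive libraries against 45.2 to 55.8 CPM in inputs and at 67.7 to 76.6 CPM in brain positive libraries against 52.8 to 78.7 CPM in inputs. In retina Dnajb1 had 38.8, 53.0 and 65.6 CPM in positive libraries against 71.1, 89.1 and 70.7 CPM in inputs (-0.55 ± 0.19, adjusted p = 0.0538), and an adjusted p of 0.0196 with fractions paired (0.00687 to 0.361 over alternatives).

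In brain 3 J proteins of the ER lumen rose with held calls. Dnajc10, an ER disulfide reductase, had 163, 164 and 138 CPM in brain positive libraries against 81.2, 81.5 and 72.0 CPM in inputs. It rose by 0.99 ± 0.14 (adjusted p = 0.0022). Dnajc3 (p58IPK) had 138, 146 and 126 CPM against 82.7, 80.9 and 82.4 CPM and rose by 0.74 ± 0.13 (adjusted p = 0.00475), and Dnajb11, the J partner of BiP, had 102, 111 and 102 CPM against 63.3, 67.0 and 66.9 CPM and rose by 0.67 ± 0.12 (adjusted p = 0.0058). No positive library of these genes overlapped an input. Dnajc3 was also called in retina (0.41 ± 0.13, adjusted p = 0.0415), a call lost without any retina input or positive 953 (up to 0.175), and not in choroid (-0.09 ± 0.16, adjusted p = 0.663). Dnajb9 (ERdj4), a target of the unfolded protein response, had values of -0.57 ± 0.23 in choroid (adjusted p = 0.0759), -0.25 ± 0.13 in retina (adjusted p = 0.181) and -0.38 ± 0.18 in brain (adjusted p = 0.126). Its choroid adjusted p was 0.0196 with fractions paired and 0.00726 without positive 421 (0.00608 to 0.402 over alternatives). Dnajc14, which overlaps Sarnp on the same strand so that its reads are uncertain, rose in brain by 1.18 ± 0.22 (adjusted p = 0.00649; 141, 160 and 133 CPM against 73.7, 72.9 and 44.4 CPM), and the call held.

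In choroid the J proteins that rose with held calls were Dnajc2 (MPP11 or zuotin), which sits on the ribosome with Hspa14, and Dnajc8, a splicing-associated protein. Dnajc2 had 56.3, 120 and 93.7 CPM in choroid positive libraries against 33.2, 45.2 and 41.0 CPM in inputs (1.17 ± 0.28, adjusted p = 0.0102). Dnajc8 had 166, 178 and 210 CPM against 89.6, 94.1 and 120 CPM (0.87 ± 0.18, adjusted p = 0.00582). Neither was called in retina (adjusted p = 0.628 and 0.315) or brain (adjusted p = 0.956 and 0.425). Brain input 960 was the highest brain library for both genes, at 127 CPM for Dnajc2 and 202 CPM for Dnajc8. With 1 library left out, the brain value ran from -0.25 to 0.82 for Dnajc2 and from 0.13 to 0.67 for Dnajc8, with adjusted p-values of 0.000118 to 0.965 and of 0.000289 to 0.761.

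Dnajc6 (auxilin), the neuronal J protein that recruits Hspa8 to clathrin coats, was lower everywhere. It had 9.08, 12.0 and 16.1 CPM in choroid positive libraries against 33.9, 36.3 and 26.0 CPM in inputs, 99.9, 102 and 128 CPM in retina positive libraries against 167, 179 and 176 CPM in inputs, and 116, 84.6 and 115 CPM in brain positive libraries against 282, 268 and 155 CPM in inputs. No positive library reached an input of its tissue. Dnajc6 fell by 1.39 in choroid (SE 0.27, adjusted p = 0.00423), by 0.66 in retina (SE 0.12, adjusted p = 0.00441) and by 1.16 in brain (SE 0.27, adjusted p = 0.0136). The choroid and retina calls held, and the brain call was lost without positive 953 (adjusted p = 0.0527). Dnajc6 met the choroid minimum through the inputs alone.

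Other J proteins fell in single tissues or with smaller values. Dnajc18 fell by 0.72 in choroid (SE 0.18, adjusted p = 0.0141) and by 0.57 in retina (SE 0.12, adjusted p = 0.00766), both held, and by 0.70 in brain (SE 0.20, adjusted p = 0.0324), where pairing gave an adjusted p of 0.0647 and every library but input 960 ended the call when left out (up to 0.103). Dnajc16 fell by 1.71 in choroid (SE 0.33, adjusted p = 0.00441) and Dnajb14 by 0.81 in retina (SE 0.13, adjusted p = 0.00254), and both calls held, although the second had an adjusted p of 0.116 in a fit of all 18 libraries (1.07e-05 to 0.116 over alternatives). Both are membrane-bound J proteins. In brain Dnajb4 fell by 0.68 (SE 0.13, adjusted p = 0.007) and Hspa2, an HSP70 best known from the testis, by 0.97 (SE 0.16, adjusted p = 0.00393), and both calls held.

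Whether the ratio of positive over input differed between tissues was asked with the interaction of tissue and fraction, fitted over all 18 libraries. Between choroid and brain 10 of 61 members had a higher and 6 a lower ratio in choroid (26.2% in all), where 24.6% of 10505 genes were called (12.2% higher and 12.3% lower). Between choroid and retina the counts were 7 and 7 (23.0%), where 28.8% of genes were called (10.9% higher and 18% lower). Between retina and brain they were 2 and 2 (6.56%), where 13.3% of genes were called (8.33% higher and 4.97% lower). With library size as the only scaling the choroid counts were 4 and 8 against brain and 2 and 11 against retina, and the median of all genes moved by -0.334 and -0.262. The share of all genes called under that scaling is not given, so these counts are not a result about the members. Choroid enters both of the first comparisons and brain or retina both of the others, so they share libraries.

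The small heat shock proteins carried the largest differences, all lower in choroid. The ratio of Hspb1 was lower by 3.32 than in brain (difference -3.32 ± 0.48, adjusted p = 9.68e-05) and by 2.15 than in retina (-2.15 ± 0.49, adjusted p = 0.00353). For Hspb8 the differences were -2.84 ± 0.35 (adjusted p = 2e-05) and -2.12 ± 0.36 (adjusted p = 0.000396), and for Hspb6 -2.43 ± 0.47 (adjusted p = 0.00132) and -1.64 ± 0.45 (adjusted p = 0.013). These 6 calls held when any 1 library of the 2 tissues was left out. The header minimum was met by Hspb6 through the inputs alone in choroid and the positive libraries alone in brain, and by Hspb1 through the positive libraries alone in retina, which favours a lower ratio in choroid for these comparisons. Hspb8 met it in both fractions of every tissue. Endothelial markers moved the same way, with a lower ratio in choroid for 9 of 12 against brain and 9 of 12 against retina. They summed to 529 to 949 CPM in choroid inputs, 209 to 255 CPM in retina inputs and 132 to 200 CPM in brain inputs, and their part was not tested.

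Hspa12b, which met the brain minimum through the positive libraries alone, had a lower ratio in choroid than in brain (-2.29 ± 0.37, adjusted p = 0.000261, held) and than in retina (-1.25 ± 0.37, adjusted p = 0.0183). The second call was lost without choroid input 421, choroid positive 953 or retina positive 421 (adjusted p up to 0.0615). On the higher side in choroid, held calls against brain were Dnajb5 (1.66 ± 0.28, adjusted p = 0.00039), Hsp90ab1 (1.33 ± 0.32, adjusted p = 0.00555) and Dnajb6 (0.97 ± 0.21, adjusted p = 0.00256). Without brain input 960 the value of Hsp90ab1 was 0.76 (adjusted p = 0.0192). Against retina they were Hspa14 (1.04 ± 0.17, adjusted p = 0.000347) and Dnajb6 (0.86 ± 0.21, adjusted p = 0.00526). No member held its call between retina and brain.

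**Figure D3:**
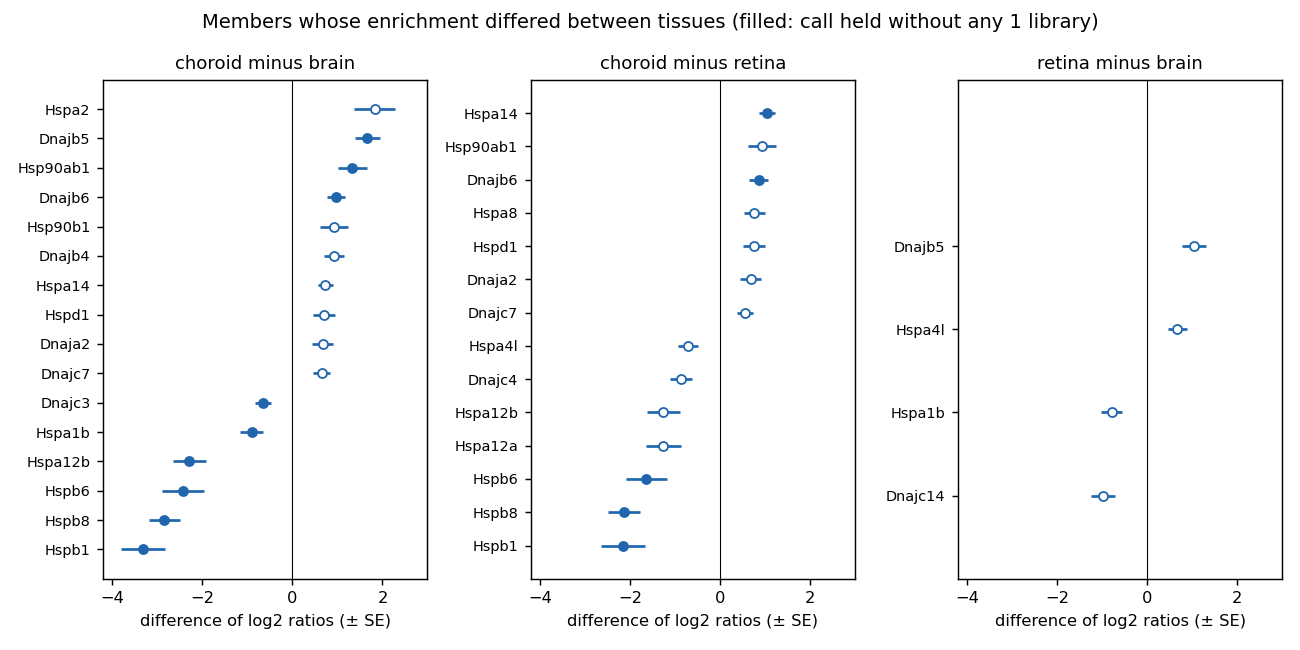
Difference of log2 ratios (positive over input) between tissues for the members called, with bars for ± 1 SE, choroid minus brain, choroid minus retina and retina minus brain. Filled points held without any 1 library; Hspb1, Hspb8 and Hspb6 lie at or below -1.64 in both choroid panels.

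Levels were also compared between the positive fractions themselves, in CPM scaled over the 9 positive libraries. Between choroid and brain 9 of 61 members were higher and 14 lower in choroid (37.7% in all), where 46.8% of 10505 genes were called (23.1% higher and 23.8% lower). Between choroid and retina 22 were higher and 16 lower in choroid (62.3%), where 72.0% of genes were called (32.9% higher and 39.1% lower). Between retina and brain 13 were higher and 22 lower in retina (57.4%), where 63.0% of genes were called (32.1% higher and 31.0% lower). With library size as the only scaling the choroid counts were 5 and 16 against brain and 17 and 20 against retina. These too lack the share of all genes under that scaling and are not a result about the members. Of 12 endothelial markers, 7 were lower (58.3%, beside 31.0% of genes) and 0 higher in retina than in brain. Compared with retina, 10 were higher (83.3%, beside 32.9%) and 0 lower in choroid. Compared with brain, 5 were higher and 1 lower in choroid (50.0% in all, beside 46.8%). The part of endothelial RNA in the levels below was not tested.

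Hsp90ab1, Hspa8 and Hspa5 were lowest in the retina pull-down. Hsp90ab1 had 2273 ± 446 CPM in choroid, 659 ± 49.5 CPM in retina and 1910 ± 128 CPM in brain positive libraries (SD, n = 3 each). It was higher in choroid than in retina by 1.79 ± 0.21 (adjusted p = 7.08e-06) and lower in retina than in brain by 1.53 (SE 0.21, adjusted p = 4.39e-05), and choroid and brain did not differ beyond their spread (0.25 ± 0.20, adjusted p = 0.332). Hspa8 had 1987 ± 302 CPM in choroid, 872 ± 141 CPM in retina and 2309 ± 93.5 CPM in brain, with the same calls (1.19 ± 0.21 for choroid over retina, adjusted p = 0.000197; -1.40 ± 0.21 for retina over brain, adjusted p = 8.63e-05). Hspa5 had 606 ± 53.0 CPM in choroid, 216 ± 36.1 CPM in retina and 464 ± 37.9 CPM in brain, 1.49 ± 0.18 higher in choroid than in retina (adjusted p = 9.28e-06) and -1.10 ± 0.18 for retina over brain (adjusted p = 0.000169). These calls held, and in each the 3 retina libraries lay below all others. Hsp90b1 was highest in choroid, at 1102 ± 190 CPM beside 456 ± 19.2 CPM in retina and 554 ± 15.0 CPM in brain, and was higher in choroid than in brain by 0.99 ± 0.18 (adjusted p = 0.000609, held).

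Among small heat shock proteins the order differed by gene. Hspb1 was 1.86 ± 0.31 higher in choroid than in retina (adjusted p = 0.000143) and -2.69 ± 0.32 for retina over brain (adjusted p = 1.41e-05), at 148 ± 55.0 CPM in choroid, 40.6 ± 13.1 CPM in retina and 260 ± 58.8 CPM in brain. Hspb8 had the same order, at 52.4 ± 13.9 CPM, 18.1 ± 3.52 CPM and 90.5 ± 13.5 CPM in choroid, retina and brain. Against brain, choroid was lower by 0.80 for Hspb8 (SE 0.22, adjusted p = 0.00969, held) and by 0.82 for Hspb1 (SE 0.30, adjusted p = 0.0379), and the second call was lost without brain positive 421, brain positive 953 or choroid positive 421 (up to 0.137). Hspb6 went the other way, with 8.64 ± 4.43 CPM in choroid, 103 ± 26.4 CPM in retina and 6.96 ± 0.507 CPM in brain. It was lower in choroid than in retina (-3.63 ± 0.31, adjusted p = 3.96e-07) and higher in retina than in brain (3.88 ± 0.28, adjusted p = 3.1e-07), both held, while choroid and brain did not differ beyond their spread (adjusted p = 0.543). In retina the inputs held as much Hspb6 as the positive libraries (74.4 to 124 CPM in positive libraries and 106 CPM in inputs, scaled within retina).

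Hspa12a, Dnajc6 and Dnajc27 were far lower in the choroid pull-down than in the other two. Hspa12a had 9.10 ± 0.376 CPM in choroid, 259 ± 9.63 CPM in retina and 101 ± 12.0 CPM in brain positive libraries, a log2 difference of -4.84 ± 0.18 for choroid over retina (adjusted p = 7.1e-09) and -3.48 ± 0.18 for choroid over brain (adjusted p = 1.88e-08). Dnajc6 had 13.2 ± 3.75 CPM, 116 ± 16.1 CPM and 106 ± 18.2 CPM (-3.19 ± 0.23 and -3.04 ± 0.23, adjusted p = 1.26e-07 and 3.7e-07), and Dnajc27, a Rab-like GTPase with a J domain, had 15.2 ± 1.13 CPM, 125 ± 7.77 CPM and 110 ± 9.33 CPM (-3.03 ± 0.16 and -2.84 ± 0.16, adjusted p = 1.67e-08 and 3.78e-08). All 6 calls held. Most neuron markers were also called lower in choroid, 6 of the 7 listed against retina, with 1 higher, and 7 of 7 against brain. Over all genes 39.1% were called lower in choroid than in retina and 23.8% lower than in brain. The part of neuron markers was not tested. None of these 3 genes was called higher in the pull-down of any tissue.

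Hspa12b, by contrast, was lower in choroid and in retina than in brain (-1.11 ± 0.24, adjusted p = 0.0023, and -1.52 ± 0.24, adjusted p = 0.000151, both held), at 106 ± 14.8 CPM, 79.2 ± 28.5 CPM and 227 ± 42.6 CPM in choroid, retina and brain. Choroid and retina did not differ beyond their spread (0.42 ± 0.24, adjusted p = 0.138). Hsph1, the heat-inducible HSP110, was lower in choroid than in brain (-1.20 ± 0.16, adjusted p = 5.16e-05) and in retina than in brain (-1.56 ± 0.16, adjusted p = 4.9e-06), both held. Hspa1b was highest in retina, at 57.6 ± 6.14 CPM beside 26.3 ± 2.03 CPM in choroid and 23.3 ± 4.12 CPM in brain (-1.13 ± 0.19 for choroid over retina, adjusted p = 0.000153; 1.31 ± 0.18 for retina over brain, adjusted p = 4.9e-05). Its retina inputs were higher still.

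**Figure D4:**
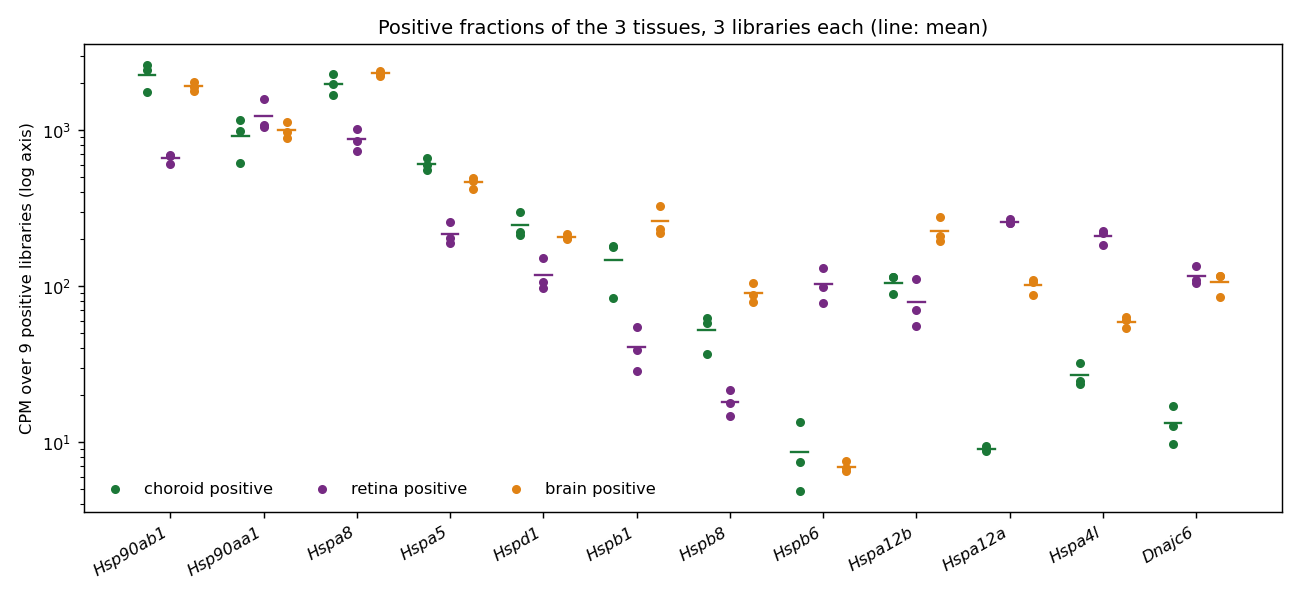
CPM on a log axis in the 9 positive libraries (3 points per tissue, line at the mean) for 12 members, with choroid, retina and brain from left to right. Retina is lowest for Hsp90ab1, Hspa8 and Hspa5 and highest for Hspb6, Hspa12a and Hspa4l.

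Per length of transcript, the positive fractions were led by the same few genes. In choroid they were Hsp90ab1 at 851 ± 171 and Hspa8 at 849 ± 130 CPM per kilobase, in retina Hsp90aa1 at 379 ± 92.8 and Hspa8 at 373 ± 62.1 CPM per kilobase, and in brain Hspa8 at 1042 ± 45.6 and Hsp90ab1 at 754 ± 52.5 CPM per kilobase (SD, n = 3). In choroid and in retina the first 2 genes did not differ beyond their spread. Hspb1 was the 4th of the 62 in brain positive libraries (283 ± 65.3 CPM per kilobase) and the 43rd in brain inputs (11.9 ± 5.47 CPM per kilobase). Together the members took 0.889% to 1.10% of the counts in choroid positive libraries and 0.908% to 0.994% in inputs, 0.698% to 0.849% in retina positive libraries and 0.840% to 0.894% in inputs, and 1.10% to 1.14% in brain positive libraries and 1.10% to 1.42% in inputs.

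Co-chaperones of HSP70 and HSP90, which hand clients over or steer the ATP cycle, were called in both directions. Of the 35 listed, 10 were higher and 6 lower in choroid (45.7%, beside 42.0% of all genes called), 5 and 2 in retina (20.0%, beside 31.7%), and 5 and 3 in brain (22.9%, beside 39.5%). Bag3, which binds Hspb8, was higher in retina (1.60 ± 0.22, adjusted p = 0.00102; means of 18.1 CPM in positive and 5.93 CPM in input libraries) and brain (1.75 ± 0.17, adjusted p = 0.000386; 73.8 and 21.9 CPM). Between positive fractions Bag3 was higher in choroid than in retina (2.40 ± 0.24, adjusted p = 1.82e-06, means of 101 and 19.2 CPM). Hspb8 went the same way there, with 36.6, 62.4 and 58.2 CPM in choroid and 14.7, 17.8 and 21.7 CPM in retina positive libraries. The fall of Hspb8 in choroid was against its inputs, which is another comparison. Of 12 listed genes of the cytosolic chaperonin CCT and its helper prefoldin, 6 were higher in choroid (50.0%, beside 21.1% of all genes). They were led by Cct2 (0.69 ± 0.15, adjusted p = 0.00667; 208 CPM in positive and 129 CPM in input libraries). In retina 2, Tcp1 and Cct7, were lower (16.7%, beside 13.7% of all genes). In brain edgeR called 0 of the 12, beside 39.5% of all genes, and 0 had an unadjusted p under 0.05. Without brain input 960 the share of all genes called in brain was 72.1%. 

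Of 4 listed heat shock factors, Hsf1, the main activator of heat shock genes, was higher in retina (0.72 ± 0.16, adjusted p = 0.011; means of 70.9 CPM in positive and 42.9 CPM in input libraries) and brain (0.69 ± 0.17, adjusted p = 0.0184; 50.8 and 31.3 CPM), Hsf2 was lower in brain and Hsf4 lower in choroid. Of the ER folding and unfolded protein response genes outside the chaperone families, 9 of 23 were higher in choroid (39.1%, beside 21.1% of all genes), led by Sdf2l1 (1.55 ± 0.20, adjusted p = 0.000591). In brain 8 of 24 were higher (33.3%, beside 21.2% of all genes) and 1 lower, led by Trib3 (4.52 ± 0.45, adjusted p = 0.000378; 14.7 CPM in positive and 0.564 CPM in input libraries) and Edem1 (1.70 ± 0.20, adjusted p = 0.000842). In retina 1 of 24 was higher (4.17%, beside 18% of all genes) and 2 were lower (8.33%, beside 13.7% of all genes).

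Of the immediate early genes, which tissue handling is known to induce, 14 of 16 listed were higher in choroid positive libraries (87.5%, beside 21.1% of all genes). In retina 8 of 17 were higher (47.1%, beside 18% of all genes), and in brain 10 of 19 were higher (52.6%, beside 21.2%) and 2 lower. Klf2 and Klf4, which are also endothelial genes, were among them: in retina Klf2 averaged 149.8 CPM in positive and 2.14 CPM in input libraries, and Klf4 92.7 and 1.37 CPM. Fos itself had 17.25, 37.35 and 22.46 CPM in choroid positive libraries, against 9.97, 8.46 and 7.10 CPM in choroid inputs. In retina it had 19.5 to 21.5 CPM in positive against 21.5 to 27.1 CPM in input libraries. In brain it had 40.3 to 49.2 CPM in positive against 47.2 to 64.4 CPM in input libraries. The summed level of the list was 3546 to 3989 CPM in choroid positive and 831 to 1116 CPM in choroid input libraries. It was 899 to 1108 CPM in retina positive against 552 to 631 CPM in retina input libraries, and 2300 to 2773 CPM in brain positive against 1231 to 1470 CPM in brain input libraries. The part of handling in the chaperone values was not tested.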

How the data were processed

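RNA from tagged ribosomes (positive) and from the lysate (input) of 3 tissues was sequenced, 3 libraries per fraction and tissue, prepared with a directional kit per the labels' protocols. The authors deposited 1 table per tissue with expected counts per gene, which need not be whole, and log2 values that the authors normalized, centred on the inputs. Only the expected counts were tested, rounded to whole numbers. Per the file headers, a gene was kept where every library of at least 1 fraction had a raw value of 50 or more, so low genes are missing and a gene kept through 1 fraction tends to differ. Per the submitters' processing notes, DESeq and mm10 were used. No source used here gives the aligner, the counting tool or its strand setting, so overlapping genes are uncertain.

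Counts were normalized with TMM, filtered with filterByExpr and fitted with edgeR 4.0.16 (quasi-likelihood test, R 4.3.3, limma 3.58.1), with Benjamini-Hochberg adjustment over all genes and a threshold of 0.05. The standard error is the absolute log2 fold change over the root of the F statistic. Positive was set against input within each tissue (6 libraries), enrichments were compared in a fit of 18 libraries over the 10505 shared genes, and positive fractions in a fit of 9. CPM were scaled within each fit, and CPM of members in different tissues were compared in the last fit only. Marker sums were scaled within each tissue, so their levels in different tissues are not on 1 scale. Alternatives were RLE and library size scaling, other filters, DESeq2 1.42.0, the replicate block, other sets of libraries, and leaving out libraries. The fitting steps were tested on simulated data. Depth ranged from 2649095 to 32064355 counts per library and was lowest in choroid positive libraries.

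Within a tissue the numbers pair samples, since both fractions come from 1 lysate per the labels' protocols. The main fits left this pairing out, and the replicate block put it in as an alternative. The deviations of same-numbered fractions had correlations between 0.227 and 0.633 (choroid), between -0.010 and 0.095 (retina) and between 0.016 and 0.171 (brain).

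Named were, in each tissue, up to 8 higher and 8 lower members whose call held without any 1 library, up to 4 and 4 in each comparison between tissues, a fixed set of well-known members, the members most abundant per length, and up to 3 genes of each wider list. Other members named were chosen after their values were seen. The members and lists were chosen with earlier results of these data known.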

Additional observations from a re-analysis of the deposited data

Results flagged for a closer look

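Members are given here because a test of the difference itself, the interaction of tissue and fraction in a fit of 18 libraries, separated their enrichment in 2 tissues. Values are differences of log2 ratios of positive over input.

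Between choroid and brain, the small heat shock proteins differed most, at -3.32 for Hspb1, -2.84 for Hspb8 and -2.43 for Hspb6. Hspa12b followed at -2.29, Hspa1b at -0.91 and Dnajc3 at -0.66. Hspb6 met the header minimum through the inputs alone in choroid and the positive libraries alone in brain, and Hspa12b through the positive libraries alone in brain, so the sign of these differences is partly set by the filter. Dnajb5 at 1.66, Hsp90ab1 at 1.33, Dnajb6 at 0.97, Hsp90b1 at 0.92 and Hspd1 at 0.70 had a higher ratio in choroid. The calls of Hsp90b1 and Hspd1 were lost when some single libraries were left out, and the other calls named here held.

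Between choroid and retina, Hspb1 differed by -2.15, Hspb8 by -2.12, Hspb6 by -1.64 and Hspa12b by -1.25. Here the minimum was met through 1 fraction by Hspb6 (inputs in choroid) and Hspb1 (positive libraries in retina). Hspa14 at 1.04, Hsp90ab1 at 0.94, Dnajb6 at 0.86, Hspa8 at 0.77 and Hspd1 at 0.76 had a higher ratio in choroid. The calls of Hspb1, Hspb8, Hspb6, Hspa14 and Dnajb6 held. Those of Hspa12b, Hsp90ab1, Hspa8 and Hspd1 were lost when some single libraries were left out. Between retina and brain, Hspa1b differed by -0.80, a call lost with the replicate block (adjusted p = 0.0562, in a range of 0.00894 to 0.114).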

How the results depend on the processing

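Of 2270 pairs of a named member and an alternative, 2022 kept the direction and the side of the threshold, 162 lost and 53 gained a call, and 33 changed sign. The cause was not tested. The counts below are of members alone. They stand without the share of all genes called in the same fit and are not a result about the members. With library size only, higher members numbered 7 in choroid, 1 in retina minus brain, 4 in choroid minus brain, 2 in choroid minus retina (11 lower) and 5 in choroid over brain positive. With the replicate block there were 19 higher in choroid, 4 lower in brain, and 1 higher and 1 lower in retina minus brain, and it moved no other count by over 1.5 times. DESeq2 gave 11 lower in brain and 4 lower in retina minus brain, the fit of 18 libraries 18 lower in brain, and fits of 12 libraries 1 higher and 5 lower in retina minus brain and 11 higher in choroid minus retina.

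With 1 library left out, counts higher and lower ran from 7 to 15 and 7 to 13 in choroid, 3 to 7 and 5 to 22 in retina, 7 to 25 and 3 to 16 in brain, 0 to 2 and 0 to 11 in retina minus brain, 4 to 14 and 6 to 9 in choroid minus brain, 2 to 12 and 4 to 7 in choroid minus retina, and 5 to 11 higher in choroid over brain positive. Without both fractions of a number they were, higher and lower, 2 and 2 (953) or 4 and 6 (960) in choroid, 2 and 0 (953) in retina with 14 lower (960), and 3 and 0 (421), 3 and 0 (953) or 26 and 16 (960) in brain.

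Sign changes were in members not called in that tissue. In choroid Hspa9 was -0.092 and Hsph1 -0.18 with library size only, and Dnajb1 was 0.014 with RLE, 0.014 with DESeq2 and 0.0076 with the replicate block. In brain the fit of 18 libraries gave Hspa9 -0.094, Hsp90b1 -0.091, Dnaja1 -0.054 and Dnajb1 -0.13. Without both fractions of 421, Hspb6 was 0.040 in retina and Hsp90b1 -0.053 in brain. Without both of 953, Hspa1a was -0.033, Hsp90b1 -0.15 and Dnaja1 -0.012 in brain. Without both of 960, Hsph1 was -0.092 and Dnajb1 0.11 in choroid, Hspe1 -0.21 in retina, and Hsp90ab1 0.24, Hspe1 0.34 and Dnajb1 -0.057 in brain. With 1 library left out, choroid values ran from -0.62 to 0.0015 for Hspa1a, -0.073 to 0.16 for Hsph1 and -0.071 to 0.11 for Dnajb1, retina values from -0.33 to 0.039 for Hspb6 and -0.16 to 0.31 for Hspe1, and brain values from -0.31 to 0.24 for Hsp90ab1, -0.079 to 0.51 for Hsp90b1, -0.16 to 0.040 for Hspd1, -0.59 to 0.33 for Hspe1 and -0.090 to 0.18 for Dnajb1. Depth was lowest in choroid positive libraries, and no alternative varied it.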
